A study of Mus musculus with 12 samples.

Results

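The genes described here encode the intraflagellar transport (IFT) and BBSome machinery of the cilium. They were taken as a named list of 39 genes out of the 27179 in the table, each matched from its numeric gene identifier to a symbol, and all 39 were found. They comprise 6 subunits of the IFT-A complex, 17 subunits of the IFT-B complex (11 of its core, B1, and 6 of its peripheral part, B2), 6 motor subunits, and 10 genes of the BBSome and its partners. All 39 passed the filter on low values, which asked for 10 or more normalized counts in 3 or more libraries, and the lowest value of any of them in any library was 27.1, for Kif17. The list is defined by membership of these complexes, and it was chosen with earlier results of these data known.

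The cells were mIMCD3, a line from the inner medullary collecting duct of mouse kidney that grows a primary cilium when serum is withdrawn. Polyadenylated RNA was sequenced from 12 libraries in 4 groups of 3: a wild type control line, a line lacking Actr3 (KO-1, called Actr3 KO below), a line with Ift88 knocked out as well as Actr3 (dKO), and KO-1 cells given 0.5 µM ciliobrevin D. All 4 groups were grown in medium with 10% FCS to confluence over 48 h and then starved of FCS for 24 h, and ciliobrevin D or solvent was present during starvation. Actr3 encodes the Arp3 subunit of the actin-nucleating Arp2/3 complex, and ciliobrevin D is a small molecule inhibitor of cytoplasmic dyneins. Each genotype was represented by 1 line, apart from 1 control column described below, so line and genotype cannot be told apart, and ciliobrevin D was not given to control cells. The labels do not state that replicates are separate cultures; a p-value here reflects spread between libraries, which may be technical.

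Intraflagellar transport moves cargo along the microtubules of the cilium in trains built from IFT-B and IFT-A. Kinesin-2 (Kif3a, Kif3b and Kifap3) carries the trains to the ciliary tip, and dynein-2, whose heavy chain is Dync2h1, carries them back with the help of IFT-A. The BBSome rides on the trains as an adaptor that moves membrane proteins, and is recruited to membranes by the small GTPase Arl6. Loss of IFT blocks the building of cilia, and in kidney epithelium defects of this machinery are a known cause of cystic and other ciliopathy disease.

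Library depth ran from 28902562 to 38077987 reads assigned to genes. Log expression correlated at 0.993 to 0.996 between libraries of a group and at 0.942 to 0.974 between groups, and by this measure no library stood apart from its group. All 9 markers of renal epithelium were detected in every group, at a summed level that ran from 118200 to 126800 for control libraries, from 89690 to 97410 for untreated and from 90570 to 94270 for treated Actr3 KO libraries, and from 80770 to 88320 for dKO. These markers did not move together. In Actr3 KO the mean of Cdh16 was 35470 against 18300 in control, while the other means were lower, that of Krt19 at 4343 against 14840. Of 10 markers of collecting duct principal cells, 3 to 6 reached a mean of 10 in a group, and Aqp2, the vasopressin-regulated water channel, had a mean of 0 in control and Actr3 KO and at most 0.62 in the other groups. The proximal tubule list, in which only 1 of 3 genes reached a mean of 10 and Slc34a1 was at 0 in all groups, had its lowest sums in dKO, from 5276 to 6504, against 10250 to 12430 for control libraries, 14320 to 17070 for untreated and 11800 to 12290 for treated Actr3 KO libraries. The part of these shifts in the changes described below was not tested.

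The edited genes were examined first. Actr3 was at 8101, 8243 and 8664 normalized counts in control, at 1347, 1145 and 1163 in Actr3 KO, at 870, 833 and 911 in dKO, and at 1400, 1562 and 1759 with ciliobrevin D. Every library of the 3 groups labelled as lacking Actr3 lay far below every control library. Ift88 (chr14:57424064-57517936, plus strand, GRCm38.p6) encodes a core IFT-B subunit on which assembly of the cilium depends. It was at 471, 441 and 458 in control, 656, 602 and 594 in Actr3 KO, 633, 573 and 606 in dKO, and 443, 438 and 434 with ciliobrevin D. The dKO libraries therefore held as many Ift88 reads as libraries of the Actr3 KO line and overlapped them. The difference between dKO and Actr3 KO was -0.03 ± 0.07 on the log2 scale (± SE, 95% interval -0.18 to 0.12, limma adjusted p = 0.725). A count over a whole gene cannot reveal a small frameshifting edit, so the Ift88 level does not check the label of the dKO. Ift88 was higher in Actr3 KO than in control by 0.43 ± 0.07 (adjusted p = 1.5e-05).

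Levels were compared between genes only as normalized counts per kb of exon. In control cells the median level per kb was 377 for the motors, 257 for IFT-B, 143 for IFT-A and 131 for the BBSome and its partners. The highest single level was that of Kif3a, the motor subunit of kinesin-2, at 605 ± 48.0 per kb (SD, n = 3). Ift43, the smallest of the IFT-A subunits, followed at 588 ± 8.52 per kb, a gap below the SD of Kif3a. The lowest level was that of Kif17, a homodimeric kinesin-2, at 6.95 ± 0.91 per kb. The median level per kb over the 39 genes was 168 for control, 196 for Actr3 KO, 200 for dKO and 150 for the treated cells. The treated group had the lowest of the 4 group means for 24 of the 39 genes and the highest for 1, Kif17. Neither these counts nor the medians per kb were taken over all genes tested.

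**Figure D1:**
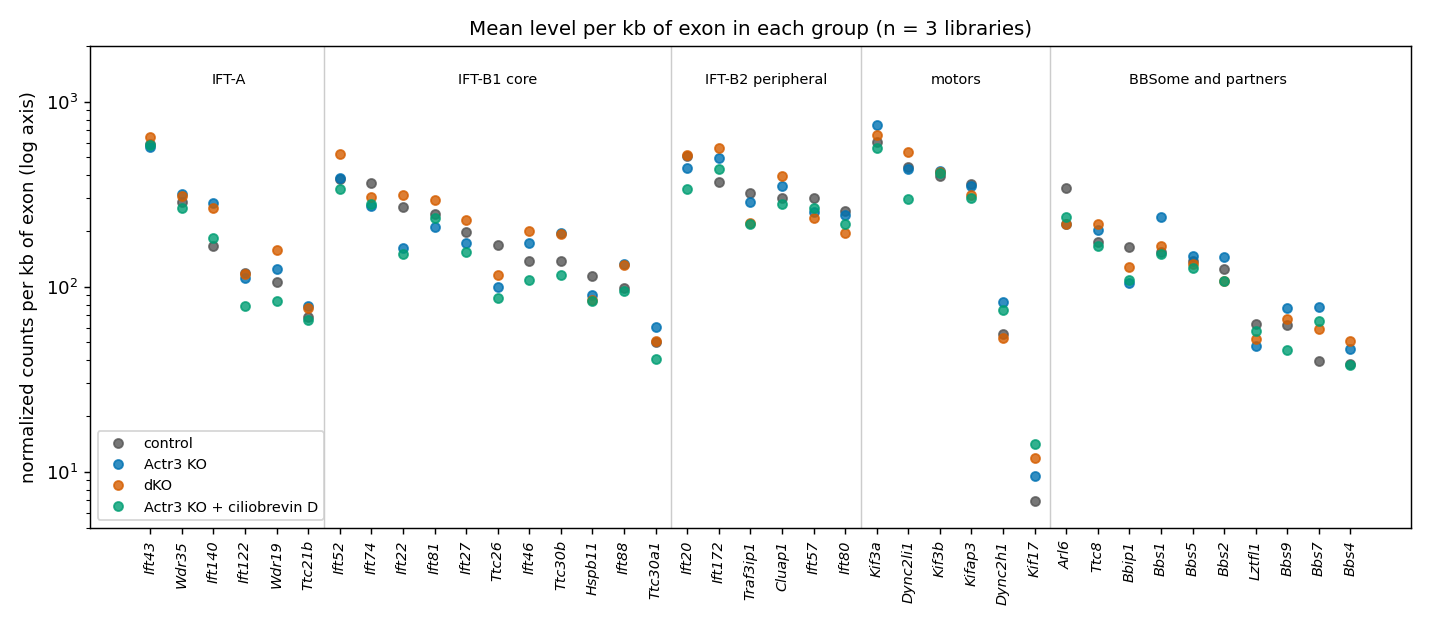
Mean normalized counts per kb of exon (log axis) for the 39 genes in each of the 4 groups (n = 3 libraries each), ordered within each complex by the control level. Kif17 stands lowest in every group, and Kif3a highest in all but the ciliobrevin D group (green), where Ift43 is highest. The ciliobrevin D group gives the lowest point for 24 genes, a count not made for all genes tested.

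Counts for a few of these genes are less certain than their replicate spread shows. Ttc30a1 and Ttc30b, which encode the IFT-B subunit IFT70, are close copies of each other and of Ttc30a2, so reads may be split among them. Other annotated genes overlap 40.8% of the exon length of Cluap1 and 7.86% of that of Ift57, and no source used here states whether the counting used strand.

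Many ciliary genes are known targets of RFX transcription factors, which bind a near-palindromic element called the X-box. RefSeq promoter windows, from 250 bases before to 50 bases after a start site on GRCm38.p6, were present for 34 of the 39 genes. A strict form of the element, GTNNCC followed after 0 to 3 bases by GGNNAC (its own reverse complement, so 1 search covers both strands), occurred in the windows of 8 of the 34 genes, or 23.5%. It occurred in 5.67% of the windows of 10545 tested genes and in 4.38% of all 27025 windows. The letters were chosen after the promoter table was seen, and a match is a description of sequence, not evidence of binding. The full degenerate X-box, searched by name, was in 19 of 34 windows (55.9%) against 37.9% of all windows. The matches below belong to genes that the comparisons turn on, each shown 5′ to 3′ on the gene's strand with the match in capitals and the flanking bases in lower case. They are from Bbs7 at chr3:36613489-36613518 (minus strand), Bbs1 at chr19:4906605-4906634 (minus), Wdr19 at chr5:65199654-65199683 (plus), Ift22 at chr5:136908079-136908108 and chr5:136908109-136908138 (plus), Ttc26 at chr6:38381483-38381512 (plus) and Lztfl1 at chr9:123717767-123717796 (minus).
Bbs7: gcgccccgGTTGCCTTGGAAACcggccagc
Bbs1: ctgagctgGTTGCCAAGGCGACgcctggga
Wdr19: tttgcacgGTCTCCTGGGTGACgagaacgc
Ift22, first match: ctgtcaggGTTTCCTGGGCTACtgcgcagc
Ift22, match nearer the start: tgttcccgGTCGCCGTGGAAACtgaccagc
Ttc26: ccggcggcGTTGCCGTGGAAACggagctcg
Lztfl1: tttctctGTTGCCATTGGCAACggcaggca

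Counting the first transcribed base as 1, the matches began at -121 in Bbs7, at 2 in Bbs1, at -34 in Wdr19, at -63 and -33 in Ift22, at -33 in Ttc26 and at -164 in Lztfl1. For Bbs7, Bbs1 and Ttc26 that start is not the outermost start annotated. Ift57, Bbs4 and a second site in Lztfl1 supplied the rest of the 11 matches. The 8 genes with a match did not share a direction when Actr3 was lost: Wdr19, Bbs1, Bbs4 and Bbs7 were higher in Actr3 KO than in control, and Ift22, Ttc26, Ift57 and Lztfl1 were lower.

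The first comparison asked how this machinery differs when Actr3 is absent. In Actr3 KO, 18 of the 39 genes were higher than in control and 11 were lower, and 10 did not pass the test (limma, Benjamini-Hochberg adjusted p under 0.05 over all 13939 genes tested). Over all genes tested 69.8% passed in this comparison, 34.4% as higher and 35.4% as lower, so the share of these genes that passed, 74.4%, was near the background. The median log2 fold change was 0.10 for the 39 genes and 0.00 for all genes tested. Changes were of moderate size: 7 of the genes passed and moved at least 1.5-fold, where 30.4% of all genes did, and none moved 2-fold. In all 29 genes that passed, the 3 libraries of one group lay entirely above those of the other, as they did in 96.9% of all genes that passed. Of the 29 calls, 18 were kept under every alternative setting and with every library left out in turn. One control column is named as if it came from a second control line, and without it 14 genes were higher and 10 lower. Because these are bulk libraries, fewer cells of a kind and less RNA per cell cannot be told apart here or below.

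Among the 6 IFT-A genes, Ift140, Wdr19 and Ttc21b rose in Actr3 KO and none fell. Ift140, a core subunit of the complex, was at 1449, 1342 and 1380 normalized counts in control and at 2312, 2282 and 2499 in Actr3 KO. Every knockout library exceeded every control library, by 0.77 ± 0.06 on the log2 scale (adjusted p = 1.85e-10). Ttc21b, which encodes the peripheral subunit IFT139, gave 688, 581 and 631 in control and 738, 696 and 770 in Actr3 KO, a rise of 0.22 ± 0.07 (adjusted p = 0.0139). The groups were separated by a narrow margin only, and the call was lost at 0.16 without control replicate 3, at 0.18 without Actr3 KO replicate 3 and at 0.12 with the median of its chromosome removed. Ift43, Ift122 and Wdr35 did not pass, with log2 fold changes of -0.05, -0.09 and 0.14.

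IFT-B moved in both directions, with 6 of its 17 genes higher and 8 lower, and neither the core (4 higher and 5 lower of 11) nor the peripheral part (2 higher and 3 lower of 6) moved one way. The calls of Ttc30a1 (0.27), Cluap1 (0.22), Traf3ip1 (-0.16), Ift20 (-0.23) and Hspb11 (-0.34) were each lost under some settings or without single libraries. Ttc26, which encodes IFT56, was at 772, 772 and 817 in control and 455, 447 and 489 in Actr3 KO, a fall of 0.76 with an SE of 0.07 (adjusted p = 5.08e-09). Ift22, a Rab-like GTPase of the core, was also lower, at 959, 896 and 1062 against 610, 643 and 509, with a log2 fold change of -0.73 ± 0.09 (adjusted p = 2.62e-07). In both genes the groups did not overlap, and with the medians of their chromosomes, 6 and 5, removed the falls were smaller, at -0.36 for Ttc26 and -0.48 for Ift22, and still called. Ttc30b rose from 387, 356 and 382 to 550, 474 and 581, by 0.51 ± 0.10 (adjusted p = 0.000167), with the reservation about its copies. Ift172, a large subunit of the peripheral part, and Ift46, of the core, rose by 0.43 ± 0.06 and 0.32 ± 0.07, and Ift172, on chromosome 5, stood at 0.68 with that chromosome's median removed. Ift74 and Ift81, the pair that binds tubulin cargo, fell by 0.40 and 0.23. For Ift81 the median change of all tested genes on its chromosome, 5, was -0.24 in this comparison, and after that median was removed its log2 fold change was 0.02 and no longer called.

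Of the 6 motor genes, Dync2h1, Kif3a and Kif17 rose and none fell. Dync2h1, the heavy chain of dynein-2, was at 1037, 880 and 808 in control and 1337, 1260 and 1457 in Actr3 KO. All 3 knockout libraries were above the highest control, by 0.58 ± 0.10 (adjusted p = 2.64e-05). Kif3a stood at 2343, 2164 and 1999 against 2766, 2537 and 2777, a rise of 0.31 ± 0.06 (adjusted p = 9.81e-05). Its partner subunits did not pass, with log2 fold changes of 0.10 for Kif3b and -0.03 for Kifap3, and the dynein-2 light intermediate chain Dync2li1 stood at -0.03 as well. Kif17, the gene with the fewest reads, had a change of 0.43 ± 0.19 that lay at the threshold (adjusted p = 0.0499). The call was lost on leaving out any library except Actr3 KO replicate 3, at values from 0.26 to 0.49, and under most other settings, among them edgeR and DESeq2.

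Of the 10 BBSome genes and partners, 6 were higher and 3 lower, and those that rose were all subunits of the BBSome itself: Bbs1, Bbs2, Bbs4, Bbs7, Bbs9 and Ttc8. Bbs7 showed the largest rise of the 39 genes, from 223, 221 and 195 normalized counts in control to 418, 439 and 395 in Actr3 KO. The lowest knockout library was well above the highest control, and the difference was 0.97 ± 0.09 (adjusted p = 8e-09). Bbs1, which contacts Arl6 when the BBSome is recruited, stood at 1236, 1202 and 1089 against 1829, 1783 and 1872, a rise of 0.64 ± 0.06 (adjusted p = 9.05e-09). Bbip1, the smallest BBSome subunit, went the other way, from 688, 725 and 761 to 458, 469 and 449. That was a fall of 0.66 with an SE of 0.07 (adjusted p = 5.52e-08), with no overlap. Arl6 and Lztfl1, a protein that restrains entry of the BBSome into cilia, were also lower, by -0.64 ± 0.08 (adjusted p = 3.42e-07) and -0.40 ± 0.08 (adjusted p = 0.000205). Bbs5 alone did not pass, at 0.07 ± 0.10. The smaller rises of Bbs2 (0.22), Bbs4 (0.26) and Ttc8 (0.21) depended on settings or single libraries. That of Bbs4 was lost with quantile normalization (0.11) and with a replicate block (0.22), and those of Bbs2 and Ttc8 with chromosome medians removed (0.18 and 0.14). That of Bbs2 was also lost without control replicate 3, the control column with the second line number, or Actr3 KO replicate 1 or 2 (0.14 to 0.23), and that of Ttc8 without control replicate 1 (0.19) or Actr3 KO replicate 3 (0.18).

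**Figure D2:**
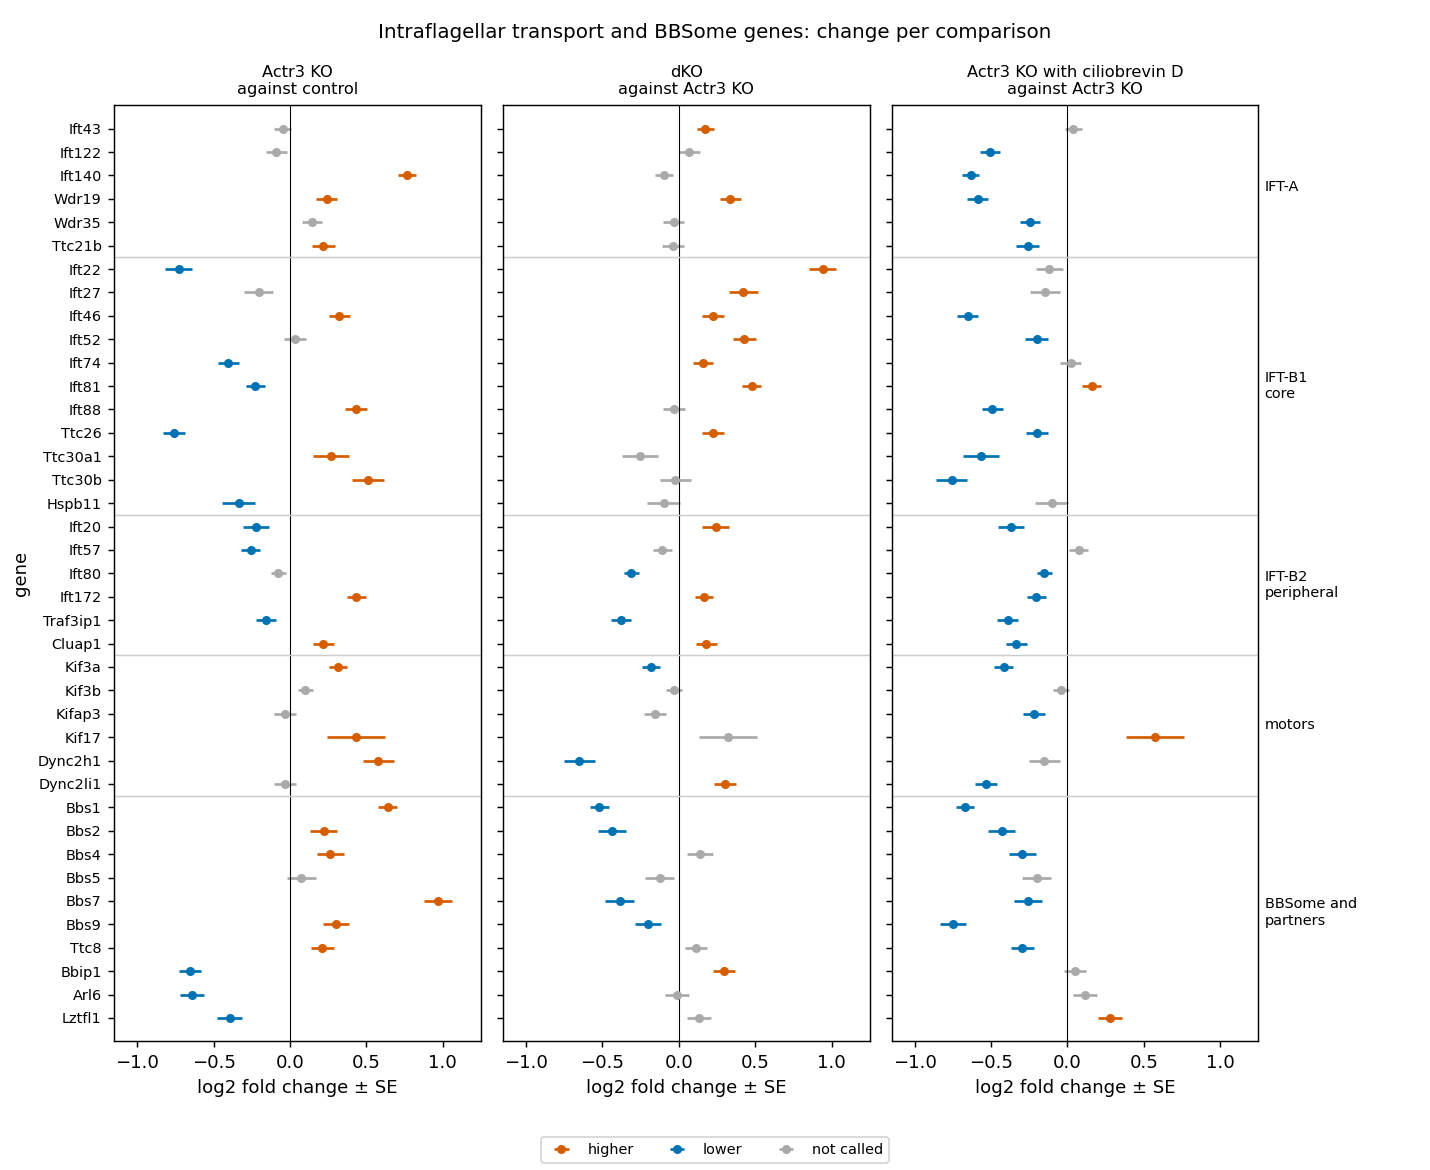
Log2 fold change ± SE of each of the 39 genes in 3 comparisons, grouped by complex, with genes passing the test as higher in orange, as lower in blue and not called in grey. In the first panel 18 genes are higher and 11 lower, in the second 14 and 8, and in the third 3 and 25.

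The second comparison asked what the added loss of Ift88 went with, within cells already lacking Actr3. In dKO against Actr3 KO, 14 of the 39 genes were higher, 8 were lower and 17 did not pass. The background was 65.7% of all genes tested (32.5% higher and 33.2% lower), and the share of these genes, 56.4%, was below it. The median log2 fold change was -0.01 for the 39 genes and -0.01 for all genes tested. Only 2 genes, Ift22 and Dync2h1, passed with a change of at least 1.5-fold, against 25.5% of all genes. Of the 22 calls, 9 were kept under every alternative setting and with every library left out in turn, and the calls lost are given with their genes below where the gene is described.

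The IFT-B core moved one way among the genes that passed: 7 of its 11 genes were higher in dKO and none was lower. Ift22 showed the largest change, from 610, 643 and 509 normalized counts in Actr3 KO to 1074, 1180 and 1124 in dKO. Every dKO library was above every Actr3 KO library, by 0.94 ± 0.09 (adjusted p = 6.57e-09). Ift52, a scaffold subunit of the core, rose by 0.43 ± 0.07 (adjusted p = 2.63e-05), and Ift27, a Rab-like GTPase, by 0.42 ± 0.10 (adjusted p = 0.000554). Ift81 rose by 0.48 ± 0.06 (adjusted p = 5.88e-07). Ift22 and Ift81 are both on chromosome 5, where the median change of all tested genes was 0.39. With that median removed Ift81 was at 0.06 and not called, and the rise of Ift22 was smaller, at 0.53, and still called. The call of Ttc26, 0.22 ± 0.07, was lost at 0.19 without dKO replicate 3, and that of Ift74, 0.16 ± 0.07 (adjusted p = 0.043), without any 1 of control replicate 3, Actr3 KO replicate 2 or 3, or dKO replicate 1 or 2, at values from 0.13 to 0.16. The Ift74 call was also lost with DESeq2, quantile normalization, no filter on low values and chromosome medians removed, at 0.12 to 0.16. Ift88 itself lies on chromosome 14, whose median was 0.16, and with it removed the Ift88 difference became -0.18 and passed the test.

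In the peripheral part of IFT-B, 3 genes were higher (Ift20, Ift172 and Cluap1) and 2 lower. The rises were small, from 0.17 to 0.24, and each was lost on leaving out some libraries: Ift20 without Actr3 KO replicate 3 (0.16) or dKO replicate 3 (0.21), Ift172 without Actr3 KO replicate 1 or 2 or dKO replicate 1 or 3 (0.14 to 0.17), and Cluap1 without Actr3 KO replicate 1 or 3 or dKO replicate 2 or 3 (0.14 to 0.18). That of Cluap1 was also lost with quantile normalization (0.14). Ift172 is on chromosome 5 and passed as lower, at -0.25, with the chromosome's median removed, while Cluap1, on chromosome 16, stood at 0.60. Traf3ip1, which encodes IFT54, stood at 1155, 968 and 1087 in Actr3 KO and 837, 791 and 837 in dKO. The groups did not overlap and the difference was -0.38 ± 0.07 (adjusted p = 3.57e-05). The median of chromosome 1, on which Traf3ip1 lies, was -0.21, and after its removal the difference was -0.15 and not called. Ift80 fell by 0.31 with an SE of 0.05 (adjusted p = 9.33e-06) on chromosome 3, whose median was -0.39, and stood at 0.08 and not called with that median removed.

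IFT-A had 2 of 6 genes higher in dKO and none lower. Wdr19, the subunit IFT144, was at 1391, 1391 and 1462 in Actr3 KO and at 1848, 1694 and 1818 in dKO, without overlap, a rise of 0.34 ± 0.07 (adjusted p = 0.000216). Wdr19 also lies on chromosome 5, and with the chromosome's median removed its difference was -0.08 and not called. Ift43 was at 978, 943 and 896 against 1074, 1064 and 1040, higher by 0.17 ± 0.06 (adjusted p = 0.0113). All dKO libraries were above the Actr3 KO libraries, but without Actr3 KO replicate 3 the difference was 0.14 and not called. Ift140 did not pass, at -0.10 ± 0.06, and kept levels of 2160, 2273 and 2193 in dKO.

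The 2 dynein-2 genes moved in opposite directions. Dync2h1 was at 1337, 1260 and 1457 in Actr3 KO and at 1016, 734 and 851 in dKO, a fall of 0.65 with an SE of 0.10 (adjusted p = 6.84e-06). Dync2li1 was at 863, 782 and 781 against 981, 1015 and 992, a rise of 0.30 ± 0.07 (adjusted p = 0.00085). Neither pair of groups overlapped. The kinesin-2 subunits changed little: Kif3a was lower by -0.18 ± 0.06 (adjusted p = 0.0122), a call lost at -0.16 without Actr3 KO replicate 3 and at -0.15 without dKO replicate 2, and Kif3b stood at -0.03 ± 0.05.

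Of the BBSome genes, 4 were lower in dKO (Bbs1, Bbs2, Bbs7 and Bbs9) and 1, Bbip1, was higher. Bbs1 went from 1829, 1783 and 1872 to 1218, 1276 and 1332, a fall of 0.52 with an SE of 0.06 (adjusted p = 2.12e-07). Its dKO level overlapped that of control, from which it differed by 0.12 ± 0.06 (adjusted p = 0.0956). Bbip1 rose from 458, 469 and 449 to 556, 585 and 550, by 0.30 ± 0.07 (adjusted p = 0.00104), and all of its dKO libraries remained below the control libraries. Bbs7 fell by 0.39 with an SE of 0.09 (adjusted p = 0.000995), the same size as the median of its chromosome, 3, and with that median removed it was at 0.0044. The call of Bbs9, at -0.20 (adjusted p = 0.0472), was lost under many of the alternatives, including the omission of Actr3 KO replicate 1 or 2 or dKO replicate 1 or 2, with values from -0.19 to -0.17.

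**Figure D3:**
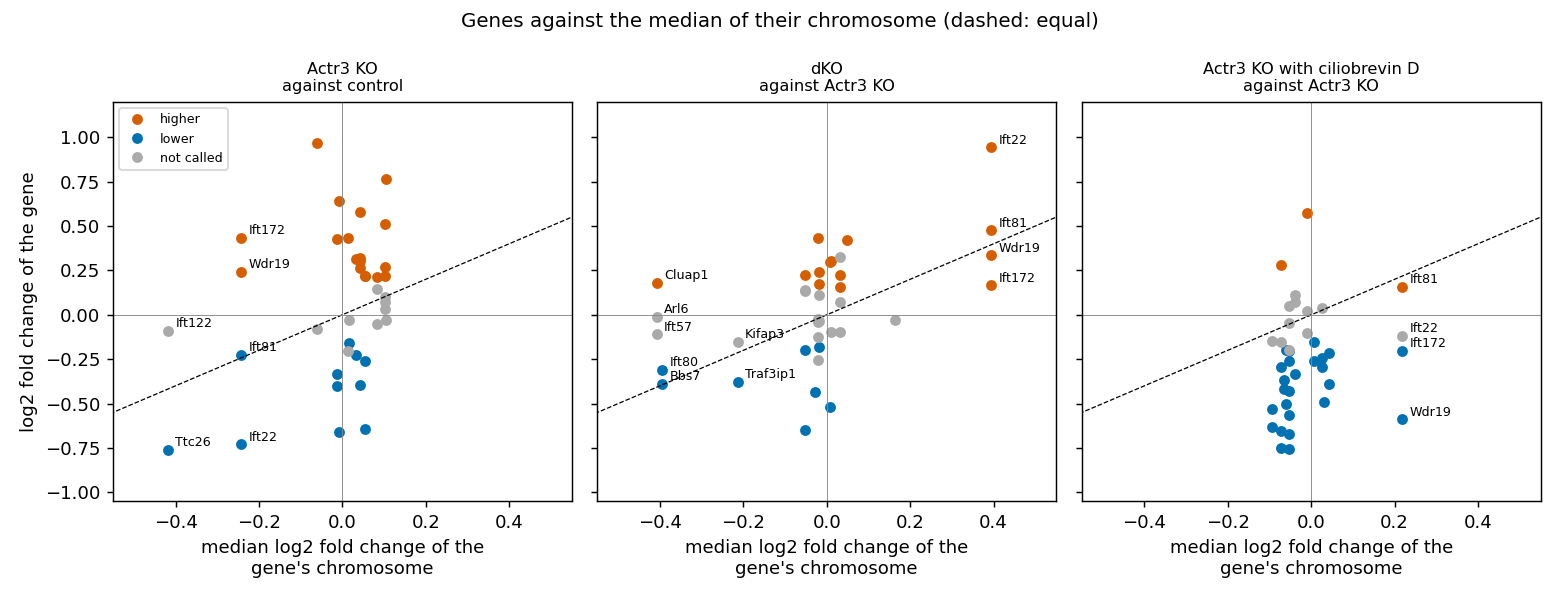
Log2 fold change of each of the 39 genes (vertical) against the median log2 fold change of all tested genes on its chromosome (horizontal) in 3 comparisons; the dashed line marks equality. In dKO against Actr3 KO the medians of the chromosomes that hold these genes run from -0.41 on chromosome 16 to 0.39 on chromosome 5, while with ciliobrevin D most genes lie below the line near a median of 0.

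Whole chromosomes thus differed between the groups. In Actr3 KO against control the median was -0.42 on chromosome 6, where Ttc26 and Ift122 lie, and -0.24 on chromosome 5. In treated Actr3 KO cells against control it was -0.41 on chromosome 6 and -0.02 on chromosome 5. Between treated and untreated cells of the Actr3 KO line it was 0.22 on chromosome 5. In dKO against Actr3 KO it was -0.41 on chromosome 16, where Ift57, Cluap1 and Arl6 lie. With the median removed Ttc26 was at -0.36 in Actr3 KO against control in place of -0.76, and still passed. Ift122, not called at -0.09, stood at 0.31 and passed as higher, and in dKO against Actr3 KO the differences of Ift57 and Arl6, not called at -0.11 and -0.01, stood at 0.31 and 0.41 and passed. Whether the lines differ in copy number of these chromosomes was not tested. On counting the members again with the medians removed, 14 were higher and 11 lower in Actr3 KO against control, and 12 were higher and 6 lower in dKO against Actr3 KO.

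The third comparison asked how these transcripts differ in Actr3 KO cells given ciliobrevin D. It and the first 2 comparisons use the same 3 untreated Actr3 KO libraries, so opposite changes among them are not independent. With ciliobrevin D, 25 of the 39 genes were lower than in solvent-treated Actr3 KO cells, 3 were higher and 11 did not pass the test. Over all genes tested 65.5% passed, 32.9% as lower and 32.7% as higher, while of these genes 64.1% passed as lower and 7.69% as higher. Their median log2 fold change was -0.25, where that of all genes tested was -0.02. Changes were again modest: 6 genes passed with at least 1.5-fold, against 24.4% of all genes, and none reached 2-fold. Of the 28 calls, 21 were kept under every alternative and with every library left out, and in all 28 the groups did not overlap, as in 95.4% of all genes that passed. With the chromosome medians removed the counts were 24 lower and 2 higher. Without the treated replicate 3 they were 21 lower and 3 higher, and the median log2 fold change of the 39 genes was -0.20. These cells are 1 line with and without the drug, and the medians of the chromosomes that hold these genes lay between -0.09 and 0.04 apart from 0.22 on chromosome 5.

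IFT-A was lower in 5 of its 6 genes. Ift140 went from 2312, 2282 and 2499 normalized counts to 1611, 1533 and 1427, a fall of 0.63 with an SE of 0.06 (adjusted p = 4.39e-09). Wdr19 and Ift122 were lower by -0.59 ± 0.07 (adjusted p = 1.96e-07) and -0.50 ± 0.07 (adjusted p = 8.85e-07). The smallest called change was that of Wdr35, the subunit IFT121, at 2285, 2214 and 2394 without the drug and 1954, 2063 and 1803 with it. Its groups did not overlap and the difference was -0.25 ± 0.07 (adjusted p = 0.00326). Ift43 alone did not pass, at 0.04 ± 0.06.

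Within IFT-B, 11 of 17 genes were lower and 1 was higher, with 6 lower in the core and 5 in the peripheral part. The core calls of Ift52 (-0.20) and Ttc26 (-0.20) were each lost under some settings or without single libraries. Ttc30b fell from 550, 474 and 581 to 331, 363 and 260, by 0.76 with an SE of 0.10 (adjusted p = 1.51e-06), and Ttc30a1, its close copy, was lower by -0.56 ± 0.12 (adjusted p = 0.000217). Ift46 was lower by -0.65 ± 0.07 (adjusted p = 4.71e-08). Ift88, at 656, 602 and 594 without and 443, 438 and 434 with ciliobrevin D, was lower by -0.49 ± 0.07 (adjusted p = 3.53e-06), and its treated libraries stood close to the control level. In the peripheral part Traf3ip1, Ift20, the subunit also found at the Golgi, and Cluap1 were lower by -0.39, -0.37 and -0.33. Ift81, the 1 gene that was higher, moved from 1177, 1258 and 1267 to 1379, 1422 and 1329, by 0.16 ± 0.06 (adjusted p = 0.0272). That call was lost at 0.12 without Actr3 KO replicate 1 and at 0.13 without the treated replicate 2, and with the median of chromosome 5 removed the difference was -0.06. Ift22, low in the Actr3 KO line, did not pass, at -0.12 ± 0.09 (95% interval -0.30 to 0.07).

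Motor genes split: Dync2li1, Kif3a and Kifap3 were lower and Kif17 higher, with the call of Kifap3, -0.22 ± 0.07, lost at -0.18 without Actr3 KO replicate 3 and at -0.16 without the treated replicate 3. Dync2li1 went from 863, 782 and 781 to 586, 569 and 521, a fall of 0.53 with an SE of 0.07 (adjusted p = 1.2e-06), and every treated library was below every untreated one. Kif3a was lower by -0.42 ± 0.06 (adjusted p = 3.6e-06), at 2089, 2007 and 1948 with the drug. Kif17 was at 39.7, 54.9 and 36.4 without and 65.0, 60.5 and 67.7 with ciliobrevin D, higher by 0.57 ± 0.19 (adjusted p = 0.012). The margin was small beside the scatter of the untreated libraries, and without Actr3 KO replicate 3 the difference was 0.45 and not called. The dynein-2 heavy chain Dync2h1 did not pass, at -0.15 ± 0.10.

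Of the 10 BBSome genes and partners 6, all BBSome subunits, were lower and Lztfl1 was higher. The call of Bbs4 (-0.30) was lost with quantile normalization. That of Bbs7 (-0.26) was lost with quantile normalization and without Actr3 KO replicate 2 or the treated replicate 1 or 3. Bbs9, which forms part of the scaffold of the complex, went from 486, 494 and 456 to 295, 305 and 254, a fall of 0.75 with an SE of 0.09 (adjusted p = 1.45e-07). Bbs1 was at 1223, 1114 and 1111 with the drug, lower by -0.67 ± 0.06 (adjusted p = 5.46e-09). No treated library of either gene reached the lowest untreated one. Lztfl1 was at 526, 530 and 535 without and 588, 711 and 638 with ciliobrevin D, higher by 0.28 ± 0.08 (adjusted p = 0.00513), with no overlap. Bbip1 and Arl6 did not pass, at 0.05 ± 0.07 and 0.11 ± 0.08.

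**Figure D4:**
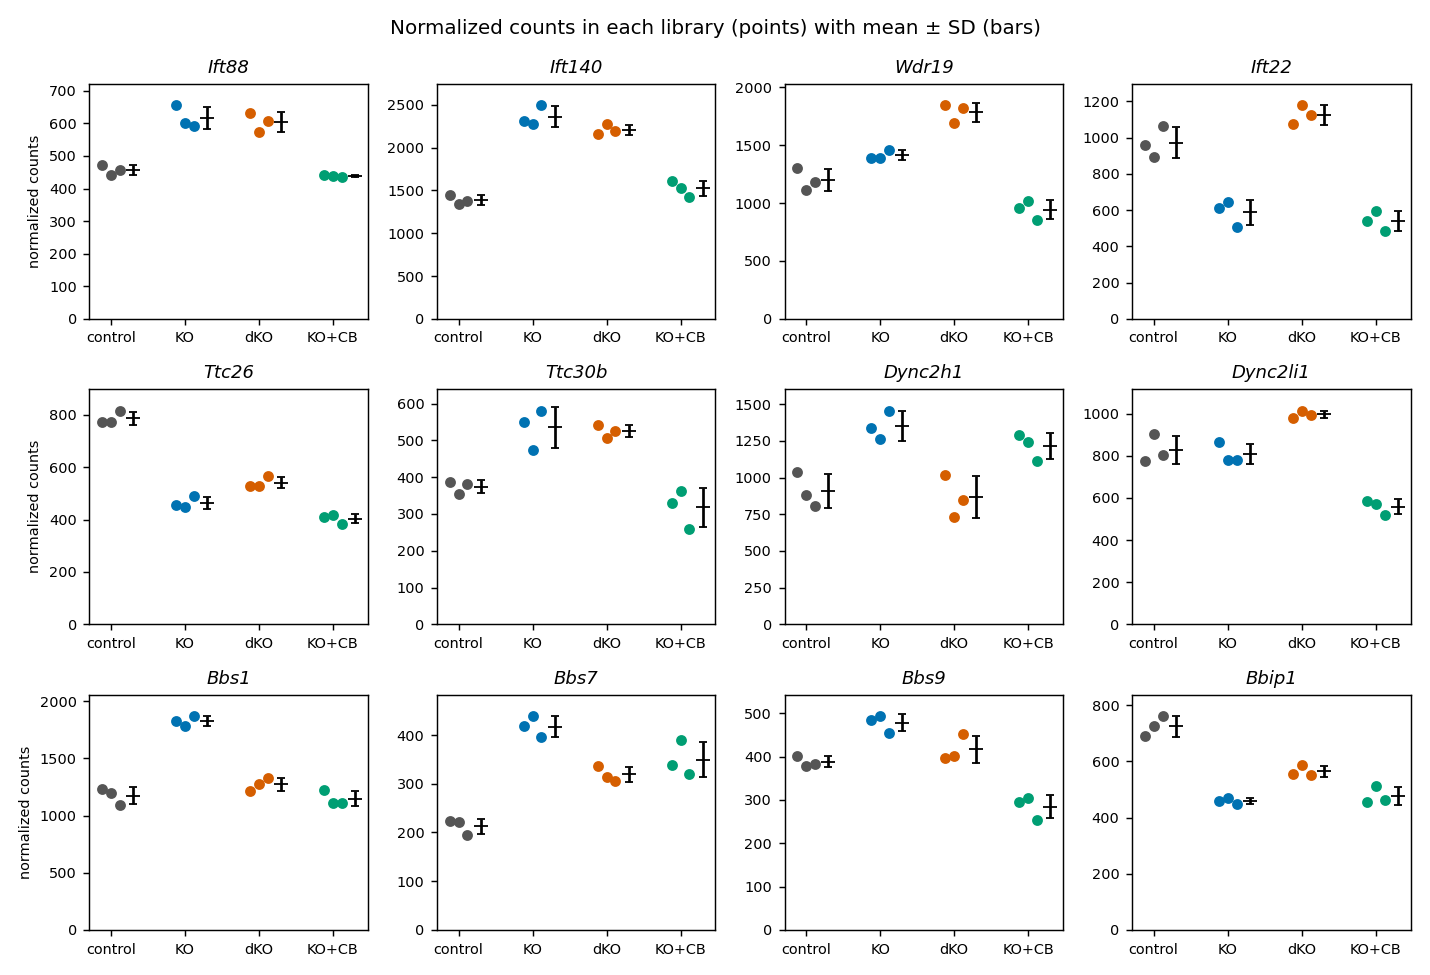
Normalized counts of 12 of the genes in each library (points) with the mean ± SD of each group (bars, n = 3), each axis starting at 0. Ift88, Ift140, Bbs1 and Bbs9 are higher in Actr3 KO than in control and lower again with ciliobrevin D, while Ift22 and Ttc26 are low in both Actr3 KO groups. The rise and the fall share the untreated Actr3 KO libraries.

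In a marker list of multiciliated cells Foxj1 moved with the ciliobrevin D result, and the list as a whole did not. Its 8 genes summed to 2475 to 2616 in Actr3 KO and to 826.3 to 1126 with ciliobrevin D, against 2516 to 2844 in control and 2434 to 2618 in dKO. Most of the sum was Foxj1, a transcription factor of motile cilia, with a mean of 678 after treatment against 2167 in untreated Actr3 KO, 2437 in control and 2323 in dKO. The defining genes Mcidas and Dnah5 had means of at most 2.18 and 13.3 in any group, and Dnaic1 was at 0 in Actr3 KO. Ccdc39 had a mean of 367 in Actr3 KO and 194 with the drug, while Ccno went from 2.74 to 25.0, and the number of the 8 genes that reached a mean of 10 was 3 without and 5 with the drug. The leukocyte list of 4 genes summed to 158.4 to 169.5 in Actr3 KO and 314.1 to 362.9 with ciliobrevin D, mainly through Cd68, at 160.6 and 331.5, while Cd3e was at 0 in both. The part of these genes in the change of the transport genes was not tested.

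Set against control, the treated Actr3 KO cells had 21 of the 39 genes lower and 4 higher (background 65.1%, 32% lower and 33% higher), with a median log2 fold change of -0.18 against 0.01 for all genes tested. At least 1.5-fold changes were called for 7 genes, where 24.3% of all genes had one. In the IFT-B core 9 of 11 genes were lower and none was higher. The core calls of Ift52 (-0.17), Ttc30b (-0.25) and Ttc30a1 (-0.30) were each lost under some settings or without single libraries, that of Ift52 also with DESeq2. Over the 39 genes 19 of the 25 calls were kept under every alternative. Without the treated replicate 3, 17 genes were lower and 5 higher, with a median log2 fold change of -0.13. Ttc26 and Ift22 showed the largest falls, -0.96 ± 0.07 (adjusted p = 2.25e-10) and -0.85 ± 0.09 (adjusted p = 4.02e-08), and with chromosome medians removed these were -0.50 and -0.82. Kif17 was higher by 1.00 ± 0.19 (adjusted p = 0.000102) and Bbs7 by 0.71 ± 0.09 (adjusted p = 9.85e-07), with no overlap with the control libraries. Ift88, at -0.06 (95% interval -0.21 to 0.09, adjusted p = 0.486), and Bbs1, at -0.03 ± 0.06, did not differ detectably from control. This comparison combines the knockout and the drug, and it shares its libraries with the comparisons above.

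In dKO against control 16 genes were higher and 11 lower (background 67.1%, 32% higher and 35.1% lower), with a median of 0.12 against -0.01, and 4 passed with at least 1.5-fold, against 27% of all genes. Ift140 and Ift172 were higher by 0.67 ± 0.06 (adjusted p = 1.65e-09) and 0.60 ± 0.06 (adjusted p = 2.36e-08), and Kif17 by 0.75 ± 0.19 (adjusted p = 0.0015). Arl6 was the lowest at -0.65 ± 0.08 (adjusted p = 3.03e-07), followed by Ttc26 at -0.54 ± 0.07. With the medians of their chromosomes, 16 and 6, removed these 2 falls shrank to -0.29 and -0.16. With chromosome medians removed 13 genes were higher and 8 lower.

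A second list held 16 further genes of the same machinery, of which 15 passed the filter and Ttc30a2 did not. In Actr3 KO against control 6 of the 15 were higher and 5 lower, a share called of 73.3% that is near the 69.8% of all genes tested. Those with a called change of at least 0.5 on the log2 scale included Tulp3, the adaptor that links IFT-A to membrane cargo, at -0.99 ± 0.06 (adjusted p = 2.16e-11) and at -0.58 with the median of chromosome 6 removed, and 3 light chains that dynein-2 shares with cytoplasmic dynein. These were Dynll1 at -0.91 ± 0.06, Dynlrb1 at -0.74 ± 0.06 and Dynlt1b at -0.60 ± 0.09. With chromosome medians removed they stood at -0.66, -0.83 and -0.71, all still called. The chaperonin-like proteins that help assemble the BBSome moved both ways: Bbs10 and Bbs12 were higher by 0.50 ± 0.12 and 0.53 ± 0.07, and Mkks was lower by -0.52 ± 0.07.

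In dKO against Actr3 KO, 7 of the 15 partner genes were higher and 4 lower, 73.3% called against 65.7% of all genes tested. Dynlrb1 and Dynll1 were higher, by 0.88 ± 0.06 and 0.72 ± 0.06, and Bbs12 lower, by -0.89 ± 0.07. Dynll1 is on chromosome 5 and Bbs12 on chromosome 3, and with the chromosome medians removed they stood at 0.31 and -0.50, both still called. With ciliobrevin D against Actr3 KO, 3 were higher and 7 lower, 66.7% called against 65.5% of all genes tested. Dynll1 was higher by 0.77 ± 0.06, from a mean of 3955 to 6751 normalized counts, while Bbs10 and Ccdc28b, a modifier of BBSome function, were lower by -0.71 ± 0.12 and -0.68 ± 0.13. The direction of Dynll1 was thus opposite to that of most transport genes. The median of chromosome 5, on which Dynll1 lies, was 0.22 in this comparison.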

How the data were processed

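The table held 27179 genes in 12 libraries. Its values are a signal, read counts divided by a size factor for each library, as deposited by the authors, and every column was a whole multiple of what 1 read is worth (100% of values within 0.01 of a whole read). The submitters' processing notes list DESeq2 2.11.40.7, featureCounts 2.0.1, HISAT2 2.2.1 and fastp 0.23.2, with mm10/GRCm38. One control column is named replicate 1 of a second control line, which matches no sample title; it entered as a control, with no replicate number assigned. Symbols and promoter windows came from RefSeq GRCm38.p6, which named 25275 identifiers, and exon lengths and overlaps from GENCODE on GRCm38.

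Values were tested with limma 3.58.1 in R 4.3.3 on log2(value + 1), all 12 libraries in 1 fit, for genes at 10 or more in at least 3 libraries, the scale of every fold change given. The test was two-sided, with Benjamini-Hochberg adjustment over all 13939 genes and a threshold of 0.05. Tested on simulated data for Actr3 KO against control (13939 genes), the fit called 48% of 1.25-fold, 98% of 1.5-fold and 100% of 2-fold changes in the right direction (50 genes each). In the simulation few genes were changed, none of them with low counts, and every gene was given the same dispersion. In the real comparison 69.8% of all genes tested passed, so these rates are not the sensitivity of the reported tests. Values per library were given for Ift88 and for the highest and lowest called change per complex in the first 3 comparisons, with a few others of interest added after their values were seen. Partner genes were named when called with a change of at least 0.5. The 39 genes and the lists were chosen with earlier results of these data known. Alternatives were other pseudocounts, filters and scalings, edgeR 4.0.16 and DESeq2 1.42.0 on the recovered reads, a replicate block, removal of chromosome medians, and leaving out each library. Wherever a chromosome median was removed, each library lost the median deviation of that chromosome's genes from their means over all 12 libraries. That quantity is not the printed median fold change of a comparison, and subtracting the printed median can give another value.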

Additional observations from a re-analysis of the deposited data

How the results depend on the processing

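The counts of genes called higher and lower stayed within 1.5 times their reported values under every alternative run. Across the settings they were 13 to 18 higher and 10 to 12 lower in Actr3 KO against control, 12 to 14 and 6 to 9 in dKO against Actr3 KO, 2 to 3 and 23 to 25 with ciliobrevin D against Actr3 KO, 13 to 20 and 8 to 11 in dKO against control, and 4 to 5 and 18 to 22 with ciliobrevin D against control. Leaving out 1 library gave 14 to 18 and 9 to 12, 10 to 14 and 7 to 9, 2 to 3 and 21 to 25, 14 to 18 and 9 to 11, and 4 to 5 and 17 to 20 in the same order. Some values near 0, called in neither the main fit nor the alternative, changed sign under other settings. A direction called in the main fit or in the alternative was reversed only on removing chromosome medians. In Actr3 KO against control this gave 0.31 for Ift122 and 0.0248 for Ift81. In dKO against Actr3 KO it gave -0.0808 for Wdr19, 0.31 for Ift57, 0.081 for Ift80, -0.25 for Ift172, 0.0044 for Bbs7 and 0.41 for Arl6. With ciliobrevin D against Actr3 KO it gave -0.0643 for Ift81, and in dKO against control 0.36 for Ift122, 0.0597 for Ift80 and 0.0299 for Kifap3. The cause was not tested. Calls kept under every alternative numbered 18 of 29, 9 of 22, 21 of 28, 19 of 27 and 19 of 25. Replicate numbers did not pair the samples, since deviations of same-numbered libraries correlated at -0.042 to 0.067. A fit with the replicate block, on the 11 libraries whose names match a sample title, gave 13 higher and 11 lower, 14 and 7, 3 and 25, 15 and 11, and 4 and 19. Kif17, with the fewest reads, was not tested under a minimum mean of 50.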
